A study of Mus musculus with 96 samples.

Results

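The 10 genes described here are targets of the transcription factor NRF2 together with genes of heme breakdown and iron storage: Hmox1, Ftl1, Fth1, Gclm, Gclc, Nqo1, Txnrd1, Srxn1, Slc7a11 and Prdx1. They were chosen by name, and all 10 are among the 23481 gene symbols of the count table. A filter on low counts left 4963 genes for testing, 9 of the 10 among them; Nqo1 did not pass. The cells were macrophages grown with conditioned medium containing MCSF from bone marrow of male wild-type C57BL/6 mice aged 8 weeks, and they were lysed 4 h after lipopolysaccharide (LPS), a bacterial cell wall component. The 12 groups of 8 libraries are NoStim, which had no LPS, DMSO with LPS, and 10 compounds each given 30 min before LPS: tBHQ, BrefA, Tunicamycin, Halofuginone, Torin, Dexa, pGE2, Baflo, Caspase-1 and ZVAD. Compound doses and the number of mice are not stated in the labels, no compound was given without LPS, and NoStim has no stated vehicle. Each group filled 4 wells on each of 2 plates. NoStim lay in wells A to D and every LPS group in wells E to H, so well position and LPS cannot be told apart. Whether wells were separate cultures is not stated, so p-values measure only the spread between these wells, which may be technical.

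NRF2, encoded by Nfe2l2, is kept low by KEAP1, an adaptor that hands it to a ubiquitin ligase built on CUL3. Electrophiles and oxidants modify KEAP1, and NRF2 then enters the nucleus and binds antioxidant response elements as a partner of small MAF proteins. BACH1 occupies some of the same elements, those of Hmox1 and the ferritin genes among them, and leaves them when it binds heme. Macrophages take up and break down red cells, so heme oxygenase and ferritin are central to their iron handling. tBHQ is the usual abbreviation of tert-butylhydroquinone, a phenol whose oxidised form is an electrophile and which is widely used to activate NRF2.

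The core of the antioxidant response element, TGACNNNGC, was searched on both strands of RefSeq promoters (GRCm38.p6), from 250 bases before to 50 after each annotated start. An entry was found for 8 of the 10 genes, with 11 starts in all; Hmox1 and Gclc had none. The motif lay in 4 of these 8 genes and in 14.0% of all 27025 genes with an entry. All 4 genes with the motif are shown, whatever their test result. In the tests below, Gclm and Prdx1 rose with tBHQ, Txnrd1 fell, and Srxn1 did not pass. Capitals mark the match, which in all 4 lies on the strand opposite to the one printed.
Gclm, chr3:122245387-122245467, plus strand: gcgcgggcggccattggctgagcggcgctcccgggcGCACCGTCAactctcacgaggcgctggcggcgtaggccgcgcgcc
Prdx1, chr4:116685430-116685510, plus strand: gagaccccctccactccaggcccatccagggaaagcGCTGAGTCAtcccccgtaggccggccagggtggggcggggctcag
Txnrd1, chr10:82859078-82859158, plus strand: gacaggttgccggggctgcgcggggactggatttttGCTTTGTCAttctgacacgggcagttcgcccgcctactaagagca
Srxn1, chr2:152105544-152105568, plus strand: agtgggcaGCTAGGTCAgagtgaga

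The match begins at position -134 from the start in Gclm, at -133 in Prdx1 and at -92 from 1 of the 3 annotated starts of Txnrd1. In Srxn1 it lies inside the annotated first exon, at 29. The stretches of Gclm, Prdx1 and Txnrd1 overlap no annotated exon. A shorter motif that drops the C, TGANNNNGC, contains every match of the first and lay in 5 of the 8 genes, against 45.0% of all genes. Ftl1, Fth1 and Nqo1 held neither motif in these windows. A match is a description of letters, and no binding was measured here.

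Library totals ran from 80196 to 379198 counts with a median of 257984.5. The Halofuginone libraries were the shallowest, at 80196 to 136526, with 44.7% ± 3.20 (SD, n = 8) of counts in the ribosomal RNA gene Rn45s, against 19.4% ± 4.64 (SD, n = 8) in DMSO. Levels below are CPM, counts scaled to a common total, after TMM scaling, and fold changes are log2 values with their standard error. Tests are edgeR quasi-likelihood tests with plate as a covariate, and p-values are Benjamini-Hochberg adjusted over all 4963 genes, with a threshold of 0.05. Over 4810 genes, a library's deviation from its plate's mean correlated with that of its own group on the other plate at a median r of 0.469. Tunicamycin library F of plate 2 had an r of -0.02 and Tunicamycin library H of plate 1 one of 0.143, the lowest of the 96. Results that rest on either are given with and without it. The 8 macrophage markers in the table summed to 1439 to 4290 CPM in every library. The highest sum of any of 7 other cell types was 65.9 CPM, for fibroblasts, and the globin genes Hba-a1, Hba-a2, Hbb-b1 and Hbb-bs, of red cell precursors, were at 0 in all libraries. Of the other red cell genes listed, Hbb-bt had 1 count in all and Alas2 had 5 counts over 4 libraries.

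LPS alone split the members. The heme oxygenase gene, both ferritin genes and Gclm were lower in DMSO with LPS than in NoStim, and Txnrd1 and Slc7a11 were higher. Of the 9 tested members, 2 were higher and 4 lower, beside 19.5% of all tested genes higher, 16.6% lower and 36.1% called in either direction. The members' median change was -0.37, and that of all genes -0.04.

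Hmox1, which encodes the inducible enzyme that opens the heme ring and frees its iron (chr8:75093621-75100589, mm10, plus strand), read 120 CPM at the lowest, 176 at the median and 257 at the highest in NoStim. In DMSO it read 85.0, 105 and 149 CPM, so the groups overlapped, and it fell by 0.55 ± 0.18 (adjusted p = 9.58e-03). The change was -0.78 on plate 1 alone and -0.35 on plate 2 alone, where the edgeR adjusted p was 0.428. In bulk RNA, fewer cells carrying a transcript and less of it per cell cannot be told apart.

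Ftl1, the ferritin light chain gene (chr7:45457944-45459884, minus strand), read 5674, 7051 and 8109 CPM (lowest, median and highest) in NoStim and 3749, 4759 and 5283 CPM in DMSO. Every DMSO library lay below every NoStim library, and Ftl1 fell by 0.60 ± 0.10 (edgeR adjusted p = 1.60e-07). Fth1, the heavy chain gene whose protein oxidises iron for storage (chr19:9980598-9985098, plus strand), read 11663, 15210 and 18818 CPM in NoStim and 10032, 11059 and 13736 CPM in DMSO. These ranges overlapped, and Fth1 fell by 0.40 ± 0.10 (adjusted p = 4.13e-04), with -0.57 on plate 1 alone and -0.26 on plate 2 alone (adjusted p = 0.189). Ferritin genes have processed copies elsewhere in the genome, such as Ftl1-ps1 and Fth-ps2, which are absent from the count table. How the authors treated reads that match several places is not given in the sources, so the ferritin counts are uncertain to that extent.

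In the glutathione branch, Slc7a11, the subunit of the cystine importer that brings in the limiting amino acid (chr3:49892526-50443614, minus strand), was barely detected without LPS. It read 0, 8.74 and 19.6 CPM in NoStim, from 0 to 6 counts a library, and 12.6, 29.0 and 52.0 CPM in DMSO, from 3 to 12 counts. The groups overlapped, and Slc7a11 rose by 1.69 ± 0.40 (adjusted p = 3.19e-04). Gclm, the modifier subunit of glutamate-cysteine ligase (chr3:122245557-122270732, plus strand), moved the other way. It read 205, 270 and 346 CPM in NoStim and 104, 160 and 209 CPM in DMSO, 1 NoStim library lying inside the DMSO range, and fell by 0.74 ± 0.19 (adjusted p = 1.05e-03). Gclc, the catalytic subunit of the same enzyme (chr9:77754535-77794485, plus strand), read 31.2 to 74.1 CPM in NoStim and 10.7 to 65.8 in DMSO. Its change was -0.37 ± 0.24 with a 95% interval of -0.83 to 0.10 and did not pass.

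In the thioredoxin branch, Txnrd1, the cytosolic thioredoxin reductase gene (chr10:82833951-82897712, plus strand), rose with no overlap. It read 158, 220 and 360 CPM in NoStim and 511, 563 and 937 CPM in DMSO. Every DMSO library lay above every NoStim library, and Txnrd1 rose by 1.33 ± 0.13 (adjusted p = 1.91e-16), with 1.37 on plate 1 alone and 1.27 on plate 2 alone. Srxn1, whose product sulfiredoxin repairs overoxidised peroxiredoxins (chr2:152105516-152111376, plus strand), changed by 0.20 ± 0.22 and Prdx1, an abundant peroxiredoxin gene (chr4:116685544-116700822, plus strand), by -0.07 ± 0.13. Neither passed, with 95% intervals of -0.23 to 0.63 and -0.34 to 0.19.

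**Figure D1:**
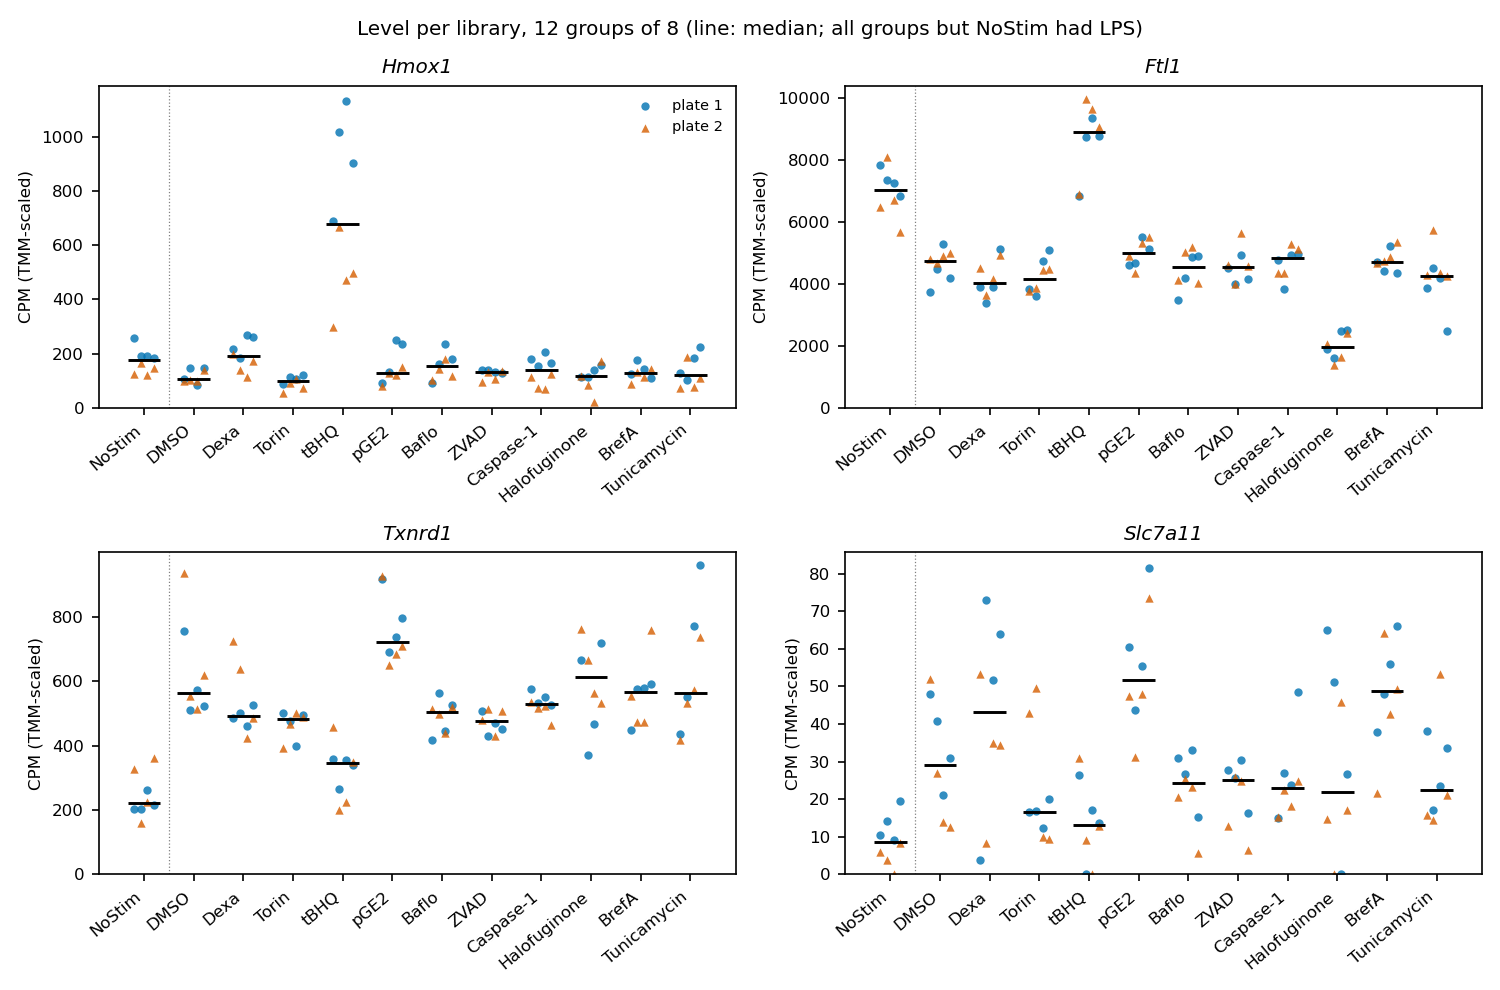
Level of Hmox1, Ftl1, Txnrd1 and Slc7a11 in each of 96 libraries, in CPM on linear axes from 0, by group; circles are plate 1, triangles plate 2 and black lines medians of 8. The tBHQ libraries stand above all others for Hmox1, from 299 to 1131 CPM, and Txnrd1 is lowest in NoStim and tBHQ.

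With tBHQ before LPS, the heme and ferritin genes were higher than in DMSO with LPS, Hmox1 most of all, as were Gclm and Prdx1. Txnrd1 and Slc7a11, which were higher in DMSO with LPS than in NoStim, were lower. tBHQ was given before LPS, so no fall from a level already raised was measured. The LPS and tBHQ comparisons share the DMSO wells, so error in those wells moves their changes in opposite directions. Of the 9 tested members 5 were higher and 2 lower. Among all tested genes 17.3% were higher, 19.1% lower and 36.4% called in either direction, so the count stands beside a wide response. The members' median change was 0.46 and that of all genes 0.04.

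Hmox1 read 299 CPM at the lowest, 678 at the median and 1131 at the highest with tBHQ. The highest DMSO library read 149 CPM, so no libraries overlapped, and Hmox1 rose by 2.55 ± 0.17, which is 5.87-fold (adjusted p = 1.69e-28). The 4 libraries of plate 1 averaged 934 CPM and those of plate 2 averaged 484 CPM. Against the DMSO wells of the same plate the changes were 2.91 and 2.12, and the difference between plates was not tested.

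Ftl1 read 6848, 8922 and 9970 CPM with tBHQ, also above every DMSO library, and rose by 0.90 ± 0.10 (adjusted p = 4.72e-14). It changed by 0.91 on plate 1 alone and by 0.87 on plate 2 alone. Fth1 read 11133, 16325 and 18117 CPM, overlapped DMSO at its low end and rose by 0.46 ± 0.10 (adjusted p = 5.23e-05). The light chain gene thus had the larger estimate of the pair, and the difference between the 2 genes was not tested.

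Slc7a11 read 0, 13.3 and 31.0 CPM with tBHQ, from 0 to 8 counts, with 2 of 8 libraries at 0. It overlapped DMSO and fell by 1.04 ± 0.38 (adjusted p = 0.0229). On plate 1 alone the change was -1.12 (adjusted p = 0.0780) and on plate 2 alone -0.95 (adjusted p = 0.286). Gclm read 141, 239 and 342 CPM, overlapped DMSO and rose by 0.55 ± 0.20 (adjusted p = 0.0192). That call came from plate 1, where the change was 0.83 (adjusted p = 1.19e-03), while on plate 2 alone it was 0.18 (adjusted p = 0.692). Gclc read 34.2, 46.4 and 61.8 CPM, inside the DMSO range, with a change of 0.30 ± 0.24 that did not pass.

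Txnrd1 read 200, 345 and 458 CPM with tBHQ, and all 8 libraries lay below the lowest DMSO library at 511 CPM. It fell by 0.95 ± 0.13 (adjusted p = 6.56e-10), with -0.83 on plate 1 alone and -1.09 on plate 2 alone. Prdx1 read 807, 1218 and 1558 CPM, overlapped DMSO, which reached 988 CPM, and rose by 0.60 ± 0.13 (adjusted p = 1.15e-04). Srxn1 read 63.1, 74.5 and 142 CPM, with a change of 0.43 ± 0.21 (adjusted p = 0.103). On plate 1 alone the change was 0.96 (edgeR adjusted p = 0.014), with means of 114 CPM with tBHQ and 58.3 in DMSO. On plate 2 alone it was -0.18 (adjusted p = 0.716), with means of 70.7 and 80.4 CPM. With the RLE size factors in place of TMM, Srxn1 passed at 0.57 (adjusted p = 0.0232), where the median change of all genes was 0.19.

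Nqo1 encodes a quinone reductase that is a classic NRF2 target (chr8:107388225-107403206, minus strand), and it was almost undetected in these macrophages. All 8 NoStim and all 8 DMSO libraries had 0 counts. Over each group, 0 counts allow up to 3, which is 1.24 CPM in NoStim and 1.45 CPM in DMSO; such limits cover counting error only. The tBHQ libraries had 0 to 3 counts each and 7 in all, as had the Tunicamycin libraries. The other groups had 1 to 5 counts in all. Nqo1 did not pass the filter on low counts, so it was fitted without that filter, over 16022 genes. There it was higher with tBHQ than in DMSO (edgeR adjusted p = 0.0231) and NoStim (adjusted p = 0.0435), where 4 of 8 tBHQ libraries had a count. With Tunicamycin, where 4 of 8 also had one, it did not pass against DMSO (adjusted p = 0.124). No fold is given, since it would rest on groups at 0.

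**Figure D2:**
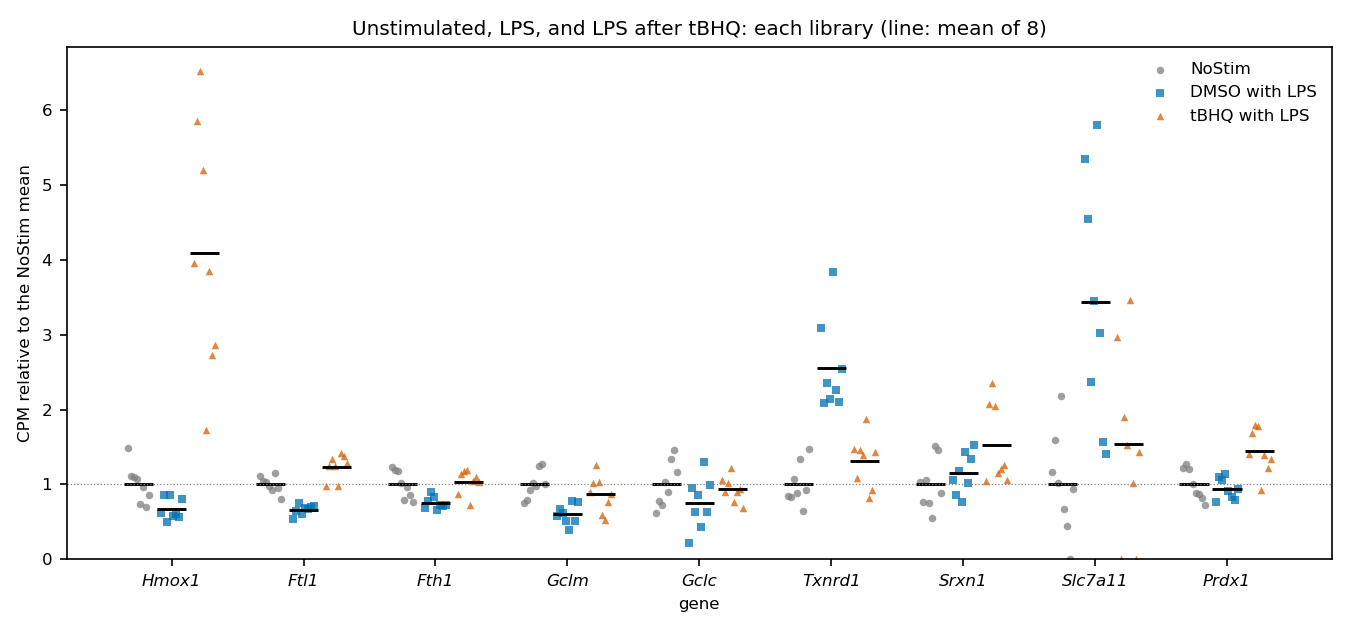
Level of the 9 tested members in NoStim (grey circles), DMSO with LPS (blue squares) and tBHQ with LPS (orange triangles), each of 8 libraries divided by the NoStim mean; black lines are means of 8. For Ftl1, Fth1 and Gclm the blue points lie low and the orange points nearer to or above 1, and for Txnrd1 and Slc7a11 the mean of the blue points is highest.

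Set against NoStim, in place of DMSO, the tBHQ wells had 4 members higher and 0 lower. Among all genes 4.76% were higher and 8.3% were called in either direction. This comparison shares the tBHQ wells with the one above. Hmox1 rose by 2.00 ± 0.16 (edgeR adjusted p = 1.57e-21), again with no overlap of libraries. Prdx1 rose by 0.53 ± 0.13 (adjusted p = 2.95e-03), Srxn1 by 0.63 ± 0.21 (adjusted p = 0.0421) and Ftl1 by 0.30 ± 0.10 (adjusted p = 0.0399), all with overlap. The Ftl1 call held in 2 of 8 alternatives, and Srxn1 changed by 1.004 on plate 1 alone and by 0.12 on plate 2 alone. Prdx1 passed on neither plate alone, at 0.46 (adjusted p = 0.0961) on plate 1 and 0.55 (adjusted p = 0.0525) on plate 2.
The other members did not pass. Txnrd1 stood at 0.38 ± 0.14 (adjusted p = 0.0659), with a 95% interval of 0.11 to 0.65, and Slc7a11 at 0.64 ± 0.46 (adjusted p = 0.487). Fth1 stood at 0.06 ± 0.10 and Gclm at -0.19 ± 0.18, with 95% intervals of -0.14 to 0.25 and -0.55 to 0.17.

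Each of the other 9 compounds was also set against tBHQ directly, and these comparisons all share the tBHQ wells. Hmox1 was higher with tBHQ in 9 of 9, by 1.83 to 2.87, and Ftl1 in 9 of 9, by 0.79 to 2.11; no library of another compound reached the tBHQ range of either gene. Txnrd1 was lower with tBHQ in 9 of 9, by -1.25 to -0.53, with libraries not overlapping in 2 of them. Gclm was higher in 7 of 9, Fth1 in 6, Prdx1 in 5 and Gclc in 1. Srxn1 was higher in 6 and, against pGE2, lower at -0.54. Slc7a11 was lower in 3, against pGE2 at -1.94, BrefA at -1.72 and Dexa at -1.46. The share of all genes called was 36.6% against Dexa, 38.2% against Torin, 32.6% against pGE2, 35.5% against Baflo, 36.3% against ZVAD, 36.5% against Caspase-1, 52.5% against Halofuginone, 36.4% against BrefA and 37.2% against Tunicamycin.

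**Figure D3:**
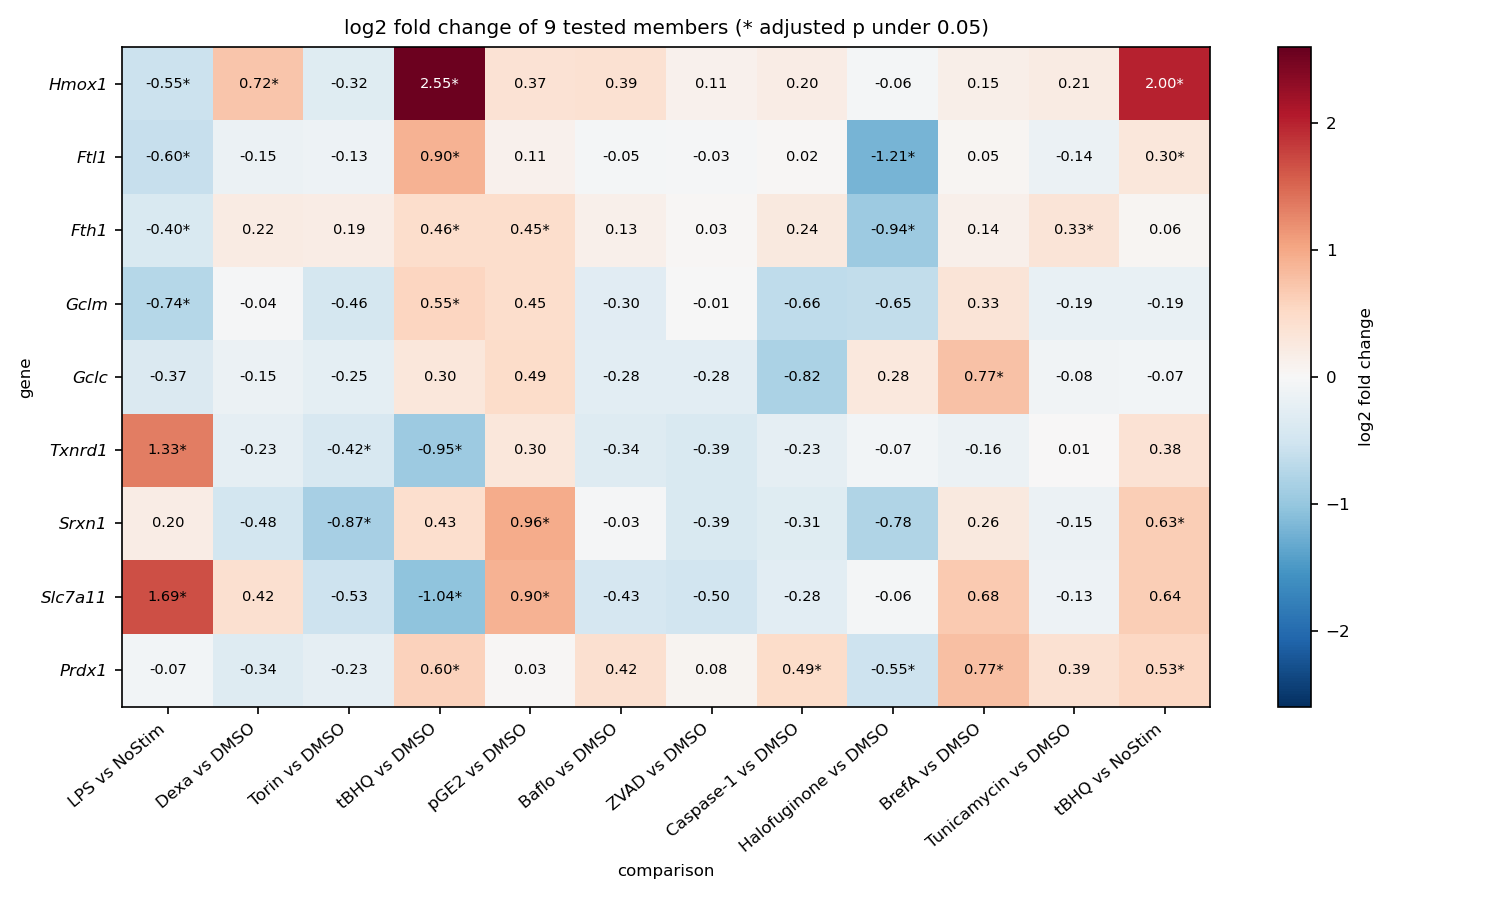
Log2 fold change of the 9 tested members (rows) in 12 comparisons (columns), red higher and blue lower in the first-named group, with an asterisk where the adjusted p is under 0.05. tBHQ against DMSO has 7 marked cells, and Baflo and ZVAD have none.

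The remaining compounds moved few members, and each is compared with the same 8 DMSO wells. With pGE2, 3 members were higher and 0 lower, beside 5.2% of all genes higher and 11.2% called. Srxn1 read 101, 135 and 166 CPM against 46.5, 67.4 and 92.1 in DMSO. No libraries overlapped, and it rose by 0.96 ± 0.20 (edgeR adjusted p = 9.68e-05), with 1.27 on plate 1 alone and 0.69 on plate 2 alone (adjusted p = 0.130). Slc7a11 read 31.2, 51.8 and 81.6 CPM, from 8 to 31 counts, overlapped DMSO and rose by 0.90 ± 0.30 (adjusted p = 0.0311). Neither plate alone called Slc7a11, at 0.84 (adjusted p = 0.227) on plate 1 and 0.97 (adjusted p = 0.344) on plate 2. Fth1 read 12845, 14897 and 19414 CPM, overlapped DMSO and rose by 0.45 ± 0.10 (adjusted p = 2.64e-04), while Ftl1 changed by 0.11 ± 0.10 and did not pass. Txnrd1 had its highest mean with pGE2, at 651, 722 and 925 CPM, with a change of 0.30 ± 0.13 (adjusted p = 0.126). The macrophage markers summed to 3177 to 4290 CPM in pGE2 and 1627 to 2096 CPM in DMSO, with a count for 8 of 8 in the table. Neutrophil markers summed to 2.73 to 21.8 CPM in pGE2 and 0 to 14.2 CPM in DMSO, with Elane and Mpo at 0 throughout; the part of either in these results was not tested. With same-named wells of the plates summed, Slc7a11 no longer passed (adjusted p = 0.0626).

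With Torin, 2 members were lower and 0 higher, beside 7.11% of all genes lower and 16.7% called. Srxn1 read 19.98, 32.5 and 72.4 CPM, overlapped DMSO and fell by 0.87 ± 0.25 (edgeR adjusted p = 8.46e-03), with -0.53 on plate 1 alone (adjusted p = 0.445) and -1.24 on plate 2 alone. Txnrd1 read 393, 482 and 500 CPM. All 8 libraries lay below the lowest DMSO library, and it fell by 0.42 ± 0.13 (adjusted p = 0.0154). Neither plate alone called Txnrd1, at -0.36 (adjusted p = 0.188) and -0.50 (adjusted p = 0.147), nor did summed wells (adjusted p = 0.0591). In pGE2 and Torin, Srxn1 was thus called in opposite directions.

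With Dexa, 1 member was higher, beside 1.95% of all genes higher and 3.57% called. Hmox1 read 113, 191 and 267 CPM, overlapped DMSO and rose by 0.72 ± 0.18 (edgeR adjusted p = 4.32e-03). It changed by 0.93 on plate 1 alone and by 0.50 on plate 2 alone (adjusted p = 0.776). With Caspase-1, 1 member was higher, beside 1.39% higher and 2.9% called. Prdx1 read 824, 1150 and 1465 CPM, overlapped DMSO and rose by 0.49 ± 0.13 (adjusted p = 0.0310), with 0.65 on plate 1 alone and 0.33 on plate 2 alone (adjusted p = 0.776). Both glutamate-cysteine ligase genes had low estimates with Caspase-1 that did not pass, Gclm at -0.66 ± 0.21 (adjusted p = 0.0583) and Gclc at -0.82 ± 0.27 (adjusted p = 0.0676).

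With Baflo and with ZVAD, edgeR called 0 of 9 members and 0% of all genes, and DESeq2 called 0 genes in both. At an unadjusted p under 0.05, edgeR had 3 members and 373 genes with Baflo and 1 member and 176 genes with ZVAD. The widest member estimate with Baflo was Slc7a11 at -0.43 ± 0.35, and Prdx1 stood at 0.42 ± 0.13 (adjusted p = 0.406). With ZVAD it was Slc7a11 at -0.50 ± 0.34. Prdx1 in Baflo read 1371 CPM on average on plate 1 and 864 on plate 2.

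With Halofuginone, both ferritin genes and Prdx1 were lower. That is 3 members lower and 0 higher, beside 25% of all genes lower and 40.3% called, and the median of all genes was itself -0.20. Ftl1 read 1397, 1985 and 2518 CPM, below every DMSO library, and fell by 1.21 ± 0.11 (edgeR adjusted p = 8.17e-20). Fth1 read 3663, 6415 and 7129 CPM, also below every DMSO library, and fell by 0.94 ± 0.10 (adjusted p = 1.70e-14). Prdx1 read 352, 561 and 795 CPM, overlapped DMSO and fell by 0.55 ± 0.15 (adjusted p = 2.54e-03). The members' median was -0.55.
The low totals and the high Rn45s share of these libraries, given above, move with this result, and their part in it was not tested. With Rn45s and Lars2 left out before scaling, the same 3 members were called, beside 2034 of 5057 genes. Without the filter on low counts, which also changes the scaling, 6 members were called, beside 2346 of 16022 genes. Gclm (-0.96), Srxn1 (-1.10) and Txnrd1 (-0.39, edgeR adjusted p = 0.0313) were added. All 16022 genes split into 576 higher and 1770 lower, and the 4963 of the filtered fit into 760 and 1240. These 2 fits test different sets of genes, so their counts are not directly comparable. Hmox1 in Halofuginone rests on 2 to 12 counts a library, Gclm on 2 to 12, Srxn1 on 1 to 6 and Slc7a11 on 0 to 4. With the filter, the changes of these genes did not pass, at -0.06 ± 0.25, -0.65 ± 0.28, -0.78 ± 0.34 and -0.06 ± 0.48. Txnrd1 read 371, 614 and 762 CPM, across the DMSO range, at -0.07 ± 0.14, with a 95% interval of -0.35 to 0.21 in the filtered fit.

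With BrefA, 2 members were higher and 0 lower, beside 8.08% of all genes higher and 17.3% called. Prdx1 read 1075, 1315 and 2181 CPM, above every DMSO library, and rose by 0.77 ± 0.13 (edgeR adjusted p = 1.61e-06). Gclc read 46.5, 62.4 and 95.7 CPM, from 11 to 29 counts, overlapped DMSO and rose by 0.77 ± 0.23 (adjusted p = 0.0108). Gclc changed by 1.07 on plate 1 alone and by 0.44 on plate 2 alone (adjusted p = 0.529), and without the filter its adjusted p was 0.0523. The highest Prdx1 value came from library H of plate 2; without it Prdx1 changed by 0.60 (adjusted p = 7.37e-05). Gclm read 91.6, 204 and 294 CPM, and its change of 0.33 ± 0.20 did not pass. Slc7a11 read 21.7, 48.7 and 66.0 CPM, with 0.68 ± 0.31 (adjusted p = 0.133).

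With Tunicamycin, 1 member was higher, beside 2.8% of all genes higher and 4.37% called. Fth1 read 11069, 14474 and 18166 CPM, overlapped DMSO and rose by 0.33 ± 0.10 (edgeR adjusted p = 0.0300). The call was lost without either of the 2 libraries that stood apart. Without library F of plate 2 the adjusted p was 0.0525, and without library H of plate 1 it was 0.0523, with changes of 0.32 and 0.35. Summed wells gave 0.32 (adjusted p = 0.174). Gclm spread widely, from 57.4 to 346 CPM, with the highest value in library F of plate 2, and Prdx1 from 678 to 2242 CPM, with the highest in library H of plate 1.

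BrefA set directly against Tunicamycin called 2 members higher with BrefA, beside 16.9% of all genes called. Gclc was higher by 0.85 ± 0.24 (edgeR adjusted p = 4.63e-03), with 1.15 on plate 1 alone and 0.53 on plate 2 alone. Prdx1 was higher by 0.38 ± 0.13 (adjusted p = 0.0337), but the plates differed in sign, at -0.15 (adjusted p = 0.588) on plate 1 alone and 0.88 on plate 2 alone. Without BrefA library H of plate 2 it was 0.21 (adjusted p = 0.240), and without Tunicamycin library H of plate 1 it was 0.58 (adjusted p = 1.80e-04). Without Tunicamycin library F of plate 2, 4 members were called, beside 908 of 5084 genes.

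**Figure D4:**
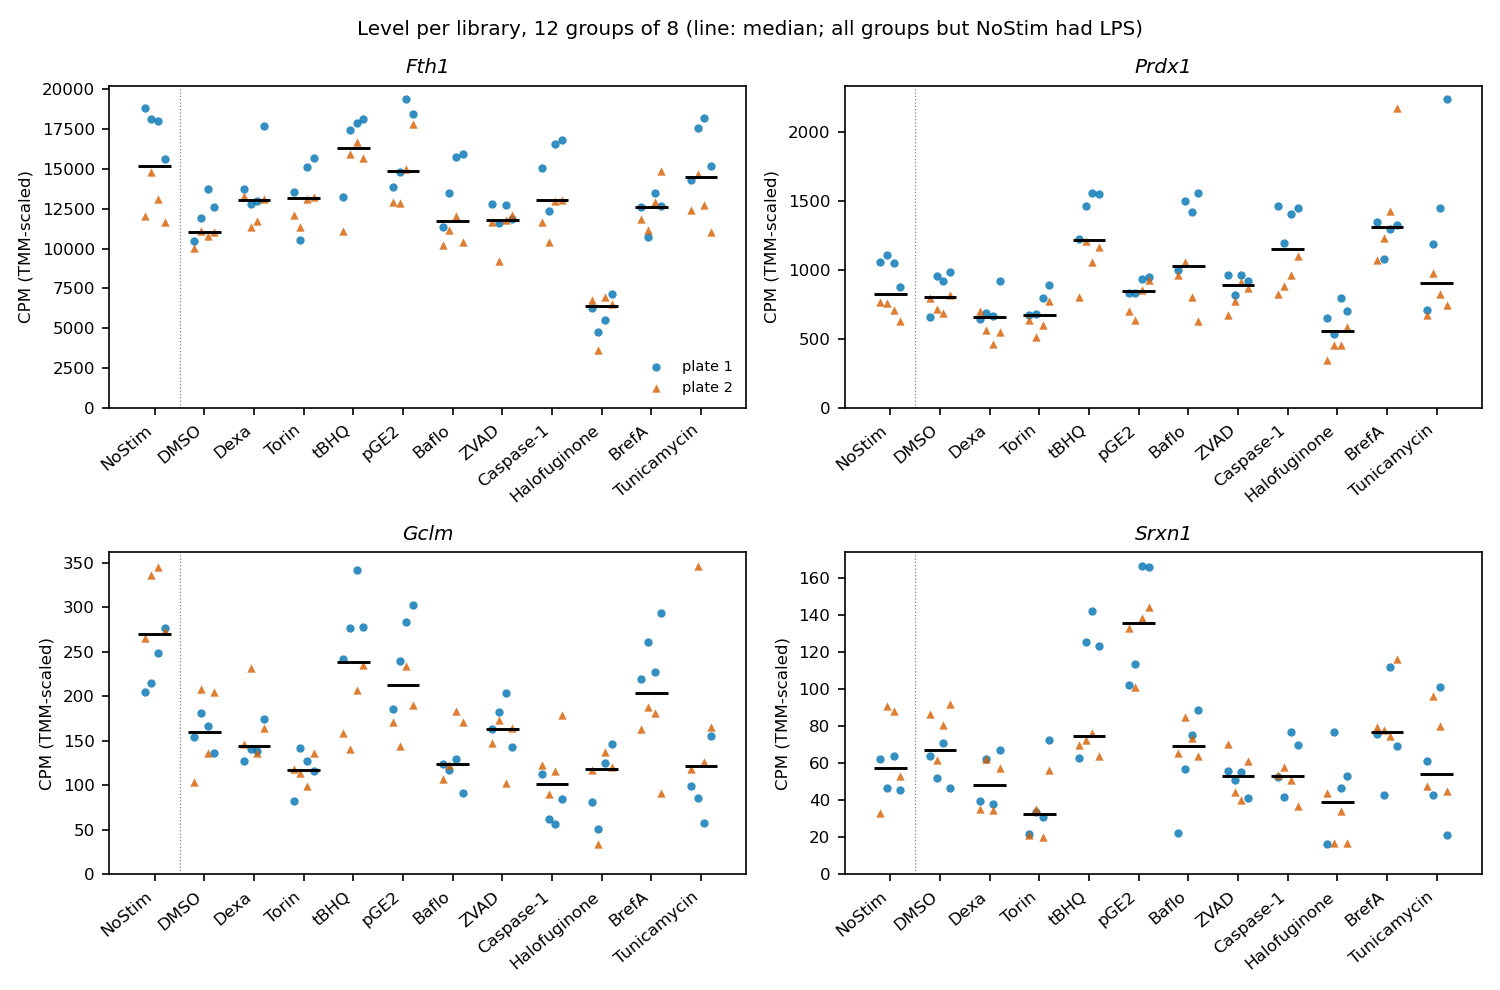
Level of Fth1, Prdx1, Gclm and Srxn1 in each of 96 libraries, in CPM on linear axes from 0, by group; circles are plate 1, triangles plate 2 and black lines medians of 8. Fth1 is lowest in Halofuginone, with no overlap with DMSO, and Srxn1 is highest in pGE2.

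Ranked by mean log level over the 12 groups, the members differ in how far neighbours stand apart. A pair of neighbours was taken as apart where the gap exceeded the larger of their 2 standard deviations. For Hmox1 the only such gap was between tBHQ, the highest, and Dexa; Dexa, NoStim and the other 9 groups followed without one, down to Halofuginone and Torin. Ftl1 had 3 gaps, between tBHQ and NoStim, between NoStim and pGE2, and between Tunicamycin and Halofuginone, the lowest. Fth1 ran from tBHQ, pGE2 and NoStim at the top to DMSO, and 1 gap set Halofuginone below it. Txnrd1 ran from pGE2 and DMSO downward, with 1 gap between Torin and tBHQ, which lay just above NoStim. Srxn1 had 1 gap, between pGE2, the highest, and tBHQ, and ended with Torin. Gclm (NoStim highest, Halofuginone lowest), Gclc (BrefA and Caspase-1), Slc7a11 (pGE2 and NoStim) and Prdx1 (BrefA and Halofuginone) had 0 gaps among their 11 neighbouring pairs, as had Nqo1, which is near 0 throughout.

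Over the 12 group means, members could be compared in pattern; the groups share plates, and Halofuginone differs from all others in depth, so these correlations are descriptions. Ftl1 and Fth1 correlated at 0.86 and Ftl1 and Gclm at 0.77. Txnrd1 and Slc7a11 correlated at 0.86, and Hmox1 with Ftl1 at 0.68 but with Txnrd1 at -0.54. Among 4810 genes with a mean of at least 20 CPM over the groups, genes most like Hmox1 included Capns1 (r = 0.90), Zfp91, Sumo3 and Tmem8. The genes most like Ftl1 were Rp9, Capg, Clta and Fam89b, all at 0.97, and Rgs19. The genes most like Txnrd1 were Jdp2 (0.93), Traf1 (0.92), Ehd1 (0.91), Ppfibp1 and Zc3h12a, and Jdp2 was also among the closest to Slc7a11, at 0.89, after Cdv3 at 0.90, with Thoc2 and Zfp945 also near. These are 12 points each, and ranks differed between plates: Tmem8 ranked 47 on plate 1 and 184 on plate 2.

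Of 8 listed genes that regulate NRF2 and its sites, 7 were tested. With LPS, where 36.1% of all genes were called, 5 rose and 1 fell: Nfe2l2 itself from a mean of 205 to 271 CPM, Keap1 (0.87 ± 0.21), Cul3 (0.85 ± 0.24), Bach1 and the small MAF gene Maff (2.44 ± 0.50, from a mean of 2.71 to 17.2 CPM) rose, and Mafg fell by 1.14 ± 0.19. With tBHQ against DMSO (36.4% of all genes called), 2 rose and 2 fell: Mafg (1.18 ± 0.19) and Nfe2l2 (0.40 ± 0.13) rose, and Maff (-1.19 ± 0.43) and Cul3 (-0.81 ± 0.24) fell. Bach1 did not pass with tBHQ, at -0.20, whereas it rose with Torin (1.89 ± 0.15) and pGE2 (1.42 ± 0.15) and fell with BrefA (-1.85 ± 0.19) and Caspase-1 (-0.54 ± 0.16). Keap1 fell with Halofuginone (-2.46 ± 0.38) and BrefA (-1.65 ± 0.23), and its mean was 74.5 CPM with Torin and 111 CPM in DMSO. Cul3, lower with tBHQ, also fell with Torin (-0.87 ± 0.26) and Halofuginone (-0.87 ± 0.35). Nfe2l2 rose with Dexa (0.73 ± 0.13), to a mean of 446 CPM, and had its highest mean with BrefA, at 496 CPM. Mafg also rose with BrefA (1.69 ± 0.19), Torin (1.09 ± 0.20), Halofuginone (0.85 ± 0.26) and Tunicamycin (0.65 ± 0.20). Maff, lower with tBHQ, rose with Halofuginone (2.21 ± 0.36), BrefA (1.20 ± 0.32) and Torin (1.19 ± 0.33). Higher and lower counts were 4 and 2 with BrefA (17.3% of all genes called), 3 and 2 with Torin (16.7%) and with Halofuginone (40.3%), 1 and 0 with Dexa (3.57%), pGE2 (11.2%), Tunicamycin (4.37%) and for tBHQ against NoStim (8.3%), and 0 and 1 with Caspase-1 (2.9%). The same shares stand beside the counts of the lists that follow. Hmox1, which BACH1 is known to repress, did not pass in Torin (-0.32 ± 0.20), pGE2 (0.37 ± 0.18), BrefA (0.15 ± 0.19) or Caspase-1 (0.20 ± 0.18). Only RNA was measured, not BACH1 protein or heme, and a link between Bach1 and Hmox1 was not tested. All values are edgeR fits with adjusted p-values under 0.05 where a gene is said to rise or fall.

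**Figure D5:**
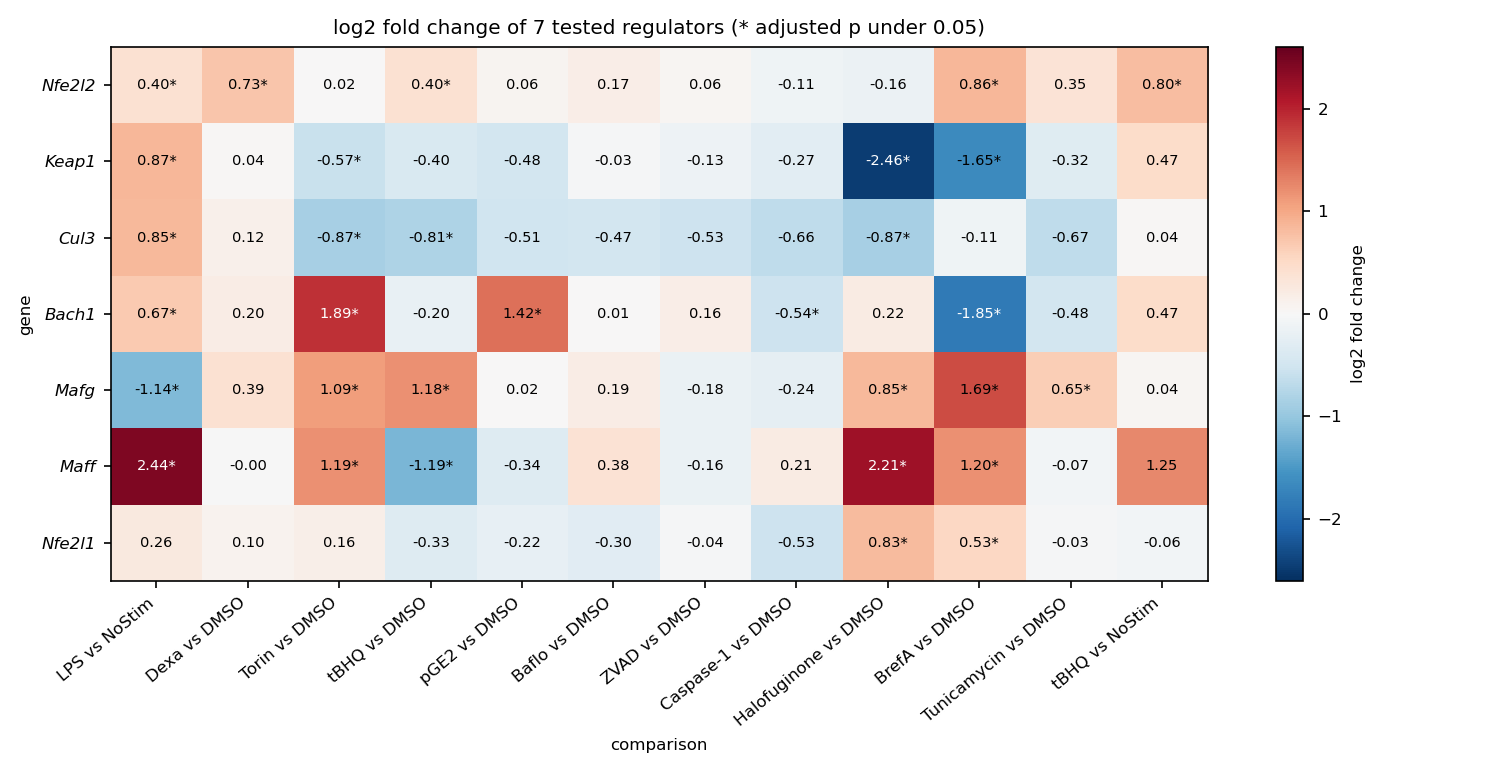
Log2 fold change of 7 regulators of NRF2 sites (rows) in 12 comparisons (columns), red higher and blue lower in the first-named group, with an asterisk where the adjusted p is under 0.05. Bach1 is red with Torin and pGE2 and blue with BrefA, and Keap1 is blue with Halofuginone and BrefA.

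Among 18 tested of 23 other listed NRF2 targets, tBHQ against DMSO had 6 higher and 4 lower, with a median of 0.37 beside 0.04 over all genes, of which 36.4% were called. Blvra, the biliverdin reductase that acts after heme oxygenase, rose by 0.95 ± 0.24, and the glutathione peroxidase genes Gpx1 and Gpx4 by 0.95 ± 0.11 and 0.77 ± 0.13. Sqstm1, which encodes an autophagy receptor, fell by 0.97 ± 0.15. LPS against NoStim had 3 of the 18 higher and 8 lower, with Sqstm1 at 1.17 ± 0.16 and Gpx4 at -0.85 ± 0.13. Halofuginone had 2 higher and 11 lower with a median of -0.98, beside 40.3% of all genes called, 25% lower and a median of -0.20 over all genes. The counts were for pGE2 3 and 0, Torin 0 and 4, Dexa 1 and 1, and BrefA 0 and 2. The edgeR count was 0 with Baflo, ZVAD, Caspase-1 and Tunicamycin and for tBHQ against NoStim.
Among 13 tested of 32 listed heme and iron genes, tBHQ against DMSO had 2 higher and 3 lower. For tBHQ against NoStim the counts were 0 and 0. Hmox2, the constitutive heme oxygenase gene, rose by 1.26 ± 0.27 and stood at -0.81 ± 0.28 with LPS against NoStim. Cp, which encodes the iron-oxidising protein ceruloplasmin, fell by 3.22 ± 0.24 and stood at 3.39 ± 0.24 with LPS against NoStim. Its means were 29.4 CPM with tBHQ, 264 in DMSO and 23.8 in NoStim. Slc25a37, a mitochondrial iron importer gene, fell by 1.01 ± 0.25 and Alas1, the first enzyme of heme synthesis, by 0.82 ± 0.23. With LPS against NoStim, Slc25a37 stood at 0.92 ± 0.24. LPS had 4 of the 13 higher and 3 lower, BrefA 2 and 2, Torin 1 and 2, pGE2 1 and 1, Dexa 1 and 0, and Halofuginone 0 and 4. Slc7a11 is also known as a target of the stress factor ATF4, and 6 of 11 listed ATF4 targets were tested. With tBHQ, Atf4 (1.32 ± 0.16) and Ddit3 (2.64 ± 0.30) rose, and Slc7a11 fell. Nupr1, a stress-responsive nuclear protein gene, fell by 2.09 ± 0.23 and stood at 2.15 ± 0.23 with LPS against NoStim. With BrefA, Ddit3 (3.15 ± 0.28), Atf4 (2.58 ± 0.15), Asns (2.39 ± 0.37) and Slc3a2, the partner subunit of the Slc7a11 protein (1.36 ± 0.17), rose. Slc7a11 did not pass with BrefA. The count of these 6 higher and lower was 2 and 1 with tBHQ, 4 and 0 with BrefA, 3 and 1 with Halofuginone, 2 and 0 with Tunicamycin, 1 and 0 with Torin, 0 and 1 with pGE2, 1 and 1 with LPS, and 2 and 0 for tBHQ against NoStim.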

How the data were processed

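The authors deposited a table of whole-number counts per gene symbol for 96 libraries. Per the labels' protocols, transcript 3′ ends were sequenced with a modified SCRB-Seq and Nextera method. Per the submitters' processing notes, reads were aligned with BWA to mm10. The BWA version, the annotation, the handling of multiple matches and any collapse of molecular identifiers are not given in these sources. The members and all lists were chosen with earlier results of these data known.

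Counts were scaled by TMM, filtered with filterByExpr and fitted in edgeR 4.0.16 (R 4.3.3), with group and plate over all 96 libraries. Each standard error is the log2 fold change divided by the square root of F. Groups came from the labels. Genes named outside the members are the up to 4 with the largest called changes of each list, the up to 5 closest in pattern, and further regulators chosen after their values were seen. Some genes close in pattern are not reported here. Alternatives were RLE scaling, no filter, single plates, summing same-named wells, a replicate block, Rn45s and Lars2 left out, left-out libraries and DESeq2 1.42.0. Scripts were tested on simulated counts. Gene positions are from GENCODE M21.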

Additional observations from a re-analysis of the deposited data

Results flagged for a closer look

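Of 118 sets of 8 libraries with any spread, 13 had a highest or lowest library far from the other 7. The rule flags about 1 in 20 sets by chance for normally spread values, which low counts do not follow, so no excess is claimed. Fth1 read 17692 CPM in Dexa library H of plate 1, above the rest, and 9211 CPM in ZVAD library F of plate 2, below them. Gclm read 232 CPM in Dexa library F of plate 2 and 346 CPM in Tunicamycin library F of plate 2. Gclc read 61.1 CPM in Baflo library H of plate 2 and 55.9 CPM in ZVAD library G of plate 2. Slc7a11 read 48.7 CPM in Caspase-1 library H of plate 1. BrefA library H of plate 2 was high for both Txnrd1, at 757 CPM, and Prdx1, at 2181 CPM. For Nqo1, a single library was above 0 in Torin (3.10 CPM), Baflo (4.11 CPM), ZVAD (3.21 CPM) and Halofuginone (25.6 CPM), each from 1 or 2 counts. Any set with a single library above 0 is flagged by this rule.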

How the results depend on the processing

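Of 88 calls on the members, RLE scaling and DESeq2 each left 86, no filter 82, summed wells 77, plate 1 alone 75, plate 2 alone 55, leaving out Rn45s and Lars2 88, and leaving out Tunicamycin library F of plate 2 87. Each plate alone holds fewer libraries. Plate 1 alone turned 1 call, Prdx1 between BrefA and Tunicamycin, to -0.15. Counts of members called that moved by over 1.5 times were as follows, with the number of all genes called in brackets. That number moved too, and its part in these shifts was not tested. Plate 1 alone gave 0 for Torin (438 of 5118 genes), 2 for Caspase-1 (194) and 2 for tBHQ against NoStim (335). Plate 2 alone gave 0 for Dexa (48 of 4886 genes), Caspase-1 (3) and Tunicamycin (5). It gave 1 for Torin (328), pGE2 (253), BrefA (487), tBHQ against NoStim (111) and BrefA against Tunicamycin (373). For tBHQ it gave 4 against Dexa (1051), 4 against ZVAD (1051), 3 against Caspase-1 (1098) and 3 against Tunicamycin (1049). With both plates these were 8, 7, 6 and 5. Summed wells gave 1 for Torin (732 of 6947 genes), 0 for Tunicamycin (110) and 2 for tBHQ against NoStim (331). No filter gave 2 for Caspase-1 (86 of 16022 genes), 6 for Halofuginone (2346) and 1 for BrefA (794). DESeq2 gave 2 for Caspase-1 (274 of 4963 genes). Without Tunicamycin library F of plate 2 the counts were 2 for Caspase-1 (179 of 5084 genes), 0 for Tunicamycin (238) and 4 for BrefA against Tunicamycin (908). In alternatives added after the data were seen, Tunicamycin had 0 without its library H of plate 1 (112 of 5089 genes). It had 2 without BrefA library H of plate 2 (233 of 5064 genes). Same-numbered wells showed little sign of pairing with DMSO, which the labels do not settle. The mean correlation of their deviations was 0.0005 to 0.066, with at most 2 of 8 pairs over 0.1 and none over 0.196. A replicate block, which cannot include NoStim, left 78 of 78 calls. Same-named wells of the plates correlated at a mean r of 0.105, with a group mean above 0 in all 12 groups, so the 8 libraries of a group may not be independent. Depth limits Nqo1 and Slc7a11 in every group and Gclc, Srxn1 and Hmox1 in Halofuginone.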
